A study of Homo sapiens with 8 samples.

Results

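MGST1, the microsomal glutathione S-transferase that removes lipid hydroperoxides in membranes, had no read in any of the 4 libraries of one engineered G401 line and was abundant in the 4 libraries of the other. MGST1 was chosen by its read counts, for that pattern, so its difference between the lines is given as a description and carries no test. It is described together with 9 genes of lipid peroxide handling, glutathione synthesis and the antioxidant response (MGST2, MGST3, GPX4, AIFM2, ACSL4, GCLC, GCLM, NQO1 and HMOX1), making 10 of the 69215 genes counted. Ferroptosis is a form of cell death driven by iron-dependent oxidation of polyunsaturated phospholipids. Glutathione feeds GPX4, which reduces the lipid peroxides, while AIFM2 regenerates lipophilic radical traps and ACSL4 loads membranes with the acyl chains that oxidise. The transcription factor NRF2 (NFE2L2) is known for activating many genes of the defence, GCLC, GCLM, NQO1 and HMOX1 among them.

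RNA was sequenced from G401, an established kidney rhabdoid tumor line without SMARCB1, a subunit of the SWI/SNF chromatin remodelling complex. One derivative carried SMARCB1 and the other GFP behind a doxycycline-inducible (Tet-on) system, and each received 0.1 µg/ml doxycycline (Dox) or an equivalent amount of dimethylsulfoxide (DMSO) for 12 h. The groups SMARCB1 DMSO, SMARCB1 Dox, GFP DMSO and GFP Dox had 2 libraries each, and comparisons were made for Dox within each line, for the difference between these Dox effects, and between the lines without and with Dox. The sources used here do not say whether each line was 1 clone or a pool of cells. Plates of a condition were pooled at harvest, and the methods describe the experiments as done in duplicate. Neither they nor the labels say whether the 2 libraries of a group came from separate cultures, so p-values measure only the spread between these libraries, which may be technical. In bulk RNA, fewer cells that make a transcript and less transcript per cell cannot be told apart.

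The libraries held 29632090 to 37597477 counts in genes, and mitochondrial genes took 18.9% to 27.9% of them, most in SMARCB1 DMSO replicate 1. SMARCB1 itself had 10 and 21 counts in SMARCB1 DMSO, 30474 and 29383 counts in SMARCB1 Dox and 0 counts in all GFP libraries, as the labels require. Among the markers checked, VIM, KRT8 and KRT18 were abundant in all 8 libraries, UMOD was at 0, and PTPRC, PECAM1, SLC34A1 and ALB did not exceed 3 counts or EPCAM 7 counts in any library. Levels are given below as CPM, counts relative to each library's total after scaling between libraries by the trimmed mean of M values (TMM).

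The plot of the 10 genes by library shows where the lines part. In the GFP line, MGST1 stood at 98.6 and 93.6 CPM with DMSO and at 99.9 and 89.5 CPM with Dox, from 3331, 3592, 3076 and 3277 counts. In the SMARCB1 line it had 0 counts in each of the 4 libraries. Every GFP library was therefore high and every SMARCB1 library was empty, with or without Dox. Set against the limit that a count of 0 allows, 3 counts over the 2 libraries of a group, MGST1 was at least 1990-fold higher in GFP DMSO than in SMARCB1 DMSO and at least 2227-fold higher in GFP Dox than in SMARCB1 Dox. These limits cover counting error only. Induction of GFP left the level in its own line within the spread between libraries (log2 fold change −0.02, SE 0.09, 95% interval −0.20 to 0.16, edgeR quasi-likelihood test, Benjamini-Hochberg adjusted p = 1). After 12 h of SMARCB1 re-expression no read of MGST1 was detected, which with 0 counts in both groups gives no fold.

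**Figure D1:**
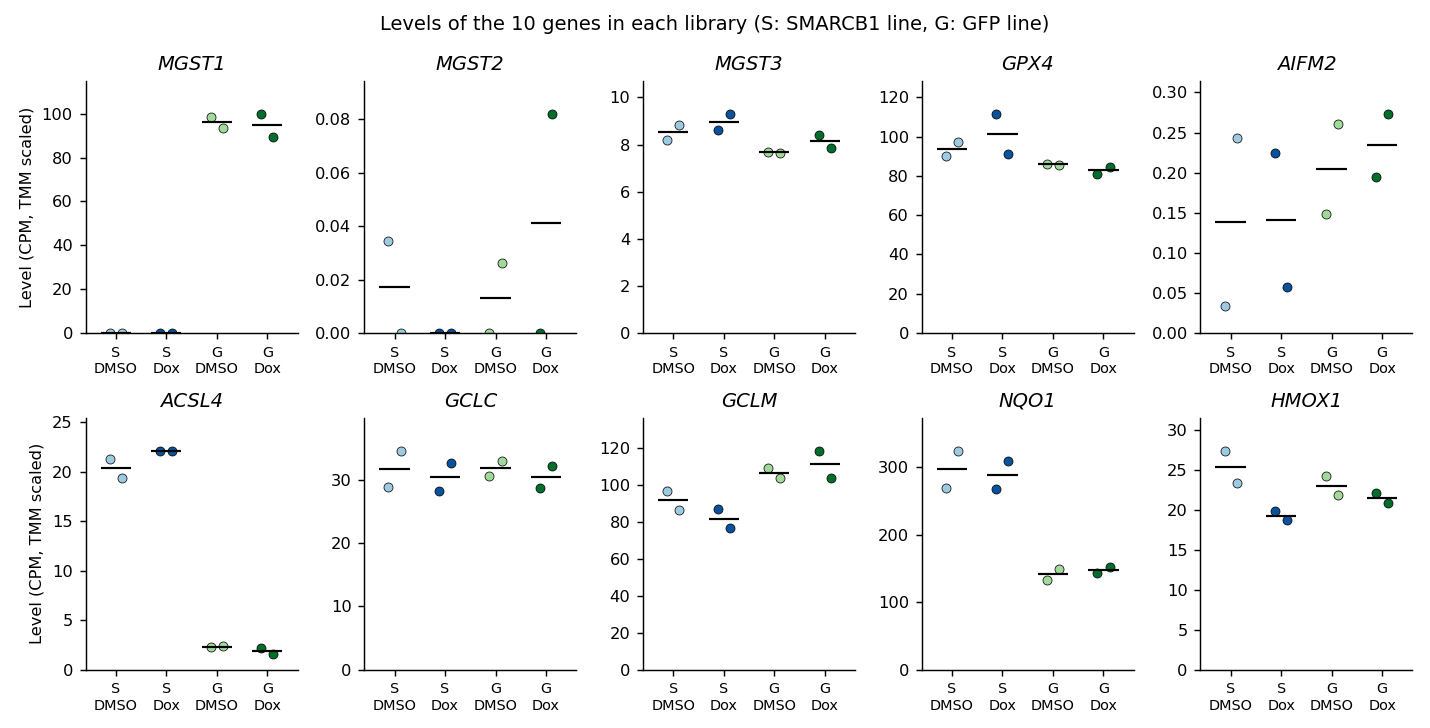
Level of each of the 10 genes in every library (vertical axis, TMM-scaled CPM from 0, a separate scale for each gene), by line (S, SMARCB1; G, GFP) and treatment; points are the 2 libraries of a group and bars their mean. MGST1 is at 0 in the 4 SMARCB1 libraries and between 89.5 and 99.9 CPM in the 4 GFP libraries, ACSL4 and NQO1 are higher in the SMARCB1 line, and MGST2 and AIFM2 are near 0 throughout.

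MGST1 lies on the plus strand of chromosome 12 (chr12:16347142-16609259, hg38), and the genes around it were read to see how far the lack of counts reached. Of the 22 other protein-coding genes with any part within 2 Mb of it, 8 had no read in any library of either line, and 16, these 8 included, never exceeded 100 counts. DERA, a deoxyribose-phosphate aldolase gene ending 0.31 Mb before the start of MGST1, had 712 to 959 counts in every library. STRAP, further to the left, had 2655 to 3531 counts. On the right the first gene with at least 100 counts in every library was PLEKHA5, 2.52 Mb beyond the end of MGST1, with 471 to 746 counts. The genes listed to the right of MGST1 (LMO3, RERGL and PIK3C2G) gave at most 4 counts in any library, in the GFP line as well, so they cannot show where the lack of reads ends on that side.

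**Figure D2:**
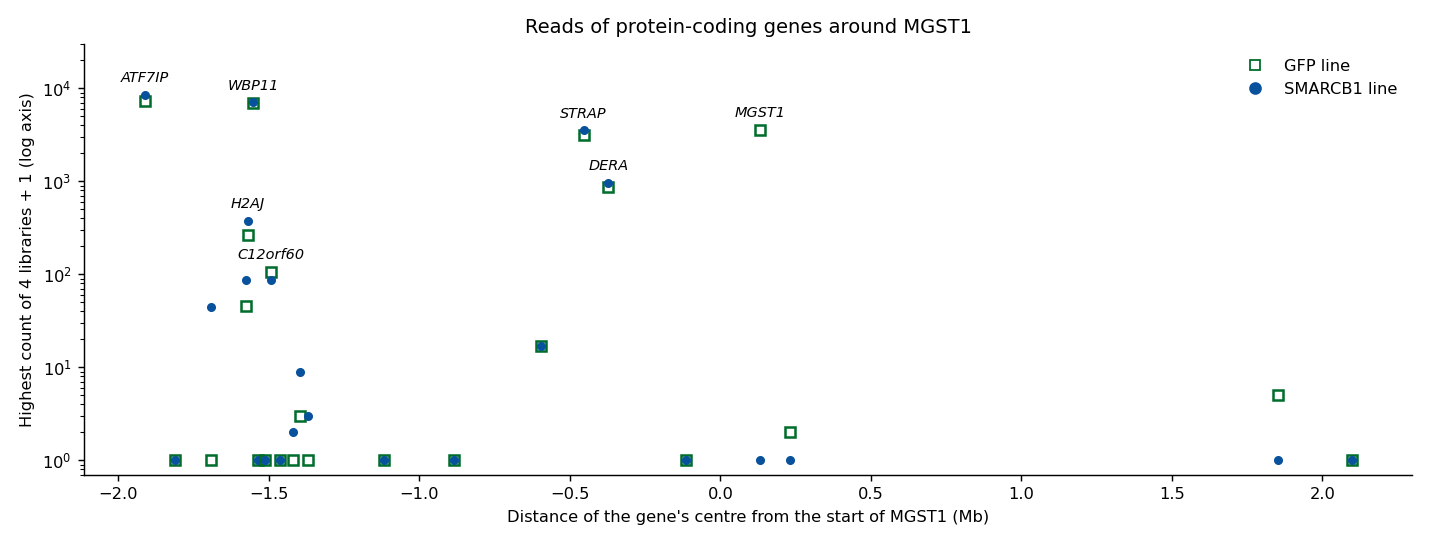
Highest count among the 4 libraries of each line, plus 1, on a log axis, for MGST1 and the protein-coding genes around it (horizontal axis, distance of the gene's centre from the start of MGST1 in Mb; filled circles, SMARCB1 line; open squares, GFP line). The neighbours with many reads, such as STRAP and DERA, have them in both lines, and only MGST1 combines 3076 to 3592 counts in the GFP libraries with 0 in the SMARCB1 line.

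DERA was slightly higher in SMARCB1 DMSO than in GFP DMSO (log2 fold change 0.31, SE 0.10, edgeR adjusted p = 0.0221), and PLEKHA5 did not pass the test (−0.16, SE 0.12, edgeR adjusted p = 0.324). Of the 9 neighbours with enough counts to be tested, 3 differed between the DMSO groups, all higher in the SMARCB1 line, against 32% of all genes tested in that comparison. LMO3, which overlaps MGST1 on the opposite strand, reached 1 count in a single library and 0 in the others. A neighbour further to the left, GUCY2C (a guanylate cyclase receptor), had 1 and 0 counts in SMARCB1 DMSO, 27 and 44 counts in SMARCB1 Dox and 0 counts in the GFP line, while MGST1 stayed at 0 with Dox.

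The bases before the start of MGST1 are printed here because the gene is empty in one line, with those before ACSL4 and NQO1, the members that went the other way. The sequences are RefSeq's, build GRCh38.p14, written 5′ to 3′ along the transcript, with each CpG in capitals, and stop before the outermost annotated start of the gene. They cover chr12:16346865-16347114 on the plus strand for MGST1, chrX:109733404-109733507 on the minus strand for ACSL4 and chr16:69726669-69726810 on the minus strand for NQO1.
MGST1: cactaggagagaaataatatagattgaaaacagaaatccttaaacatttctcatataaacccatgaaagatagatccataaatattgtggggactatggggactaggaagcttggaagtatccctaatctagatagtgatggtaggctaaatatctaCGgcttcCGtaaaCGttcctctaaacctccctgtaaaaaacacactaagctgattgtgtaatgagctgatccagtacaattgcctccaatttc
ACSL4: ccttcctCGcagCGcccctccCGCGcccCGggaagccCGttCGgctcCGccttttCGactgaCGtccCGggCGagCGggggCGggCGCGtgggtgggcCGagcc
NQO1: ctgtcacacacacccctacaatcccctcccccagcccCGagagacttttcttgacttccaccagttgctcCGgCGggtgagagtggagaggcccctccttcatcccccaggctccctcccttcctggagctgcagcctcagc
The MGST1 stretch holds 3 CpG in 250 bases, the shorter ACSL4 stretch 17 CpG in 104 bases and that of NQO1 3 CpG in 142 bases. These stretches are not at like positions. That of MGST1 ends at its first listed promoter start. Those of ACSL4 and NQO1 stop upstream of their listed starts, chrX:109733257 and chr16:69726560. Over the whole window of 300 bases (250 before the start and 50 after it), the first MGST1 start had 4 CpG, and 24.5% of the 35116 promoters listed had fewer. Its other listed starts, further downstream, had 18 and 19 CpG, above the median of 14 over all promoters. ACSL4 had 51 CpG, more than 98.99% of promoters, and NQO1 had 14. The other members with a listed promoter lay between, with 22 CpG for MGST3, 30 for AIFM2, 32 for GCLC, 41 for GCLM and 39 to 43 for the GPX4 starts. In all, 8 of the 10 members had a promoter in the table. The counts of CpG describe the reference sequence, and methylation was not analysed here.

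The letters of the antioxidant response element, TGACNNNGC, where NRF2 is known to bind, were searched on both strands of the same windows. They occur in AIFM2 as GCTGAGTCA at position −22, in GCLM as GCTTAGTCA at −34 and in the first MGST1 window as TGACAAAGC at +31, positions being counted along the transcript from its start. The letters are in 13.3% of all promoters. A match is a description of the letters and not a site shown to be used.

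MGST2 and MGST3 are the relatives of MGST1 among the 10 genes, of which MGST2 was barely detected and MGST3 did not pass between the lines. MGST2 reached no more than 3 counts in a library (1 and 0 with DMSO and 0 and 0 with Dox in the SMARCB1 line, 0 and 1 with DMSO and 0 and 3 with Dox in the GFP line) and could not be tested. MGST3 stood at 8.20 and 8.83 CPM with DMSO and 8.60 and 9.30 CPM with Dox in the SMARCB1 line, and at 7.67 and 7.66 CPM with DMSO and 8.41 and 7.87 CPM with Dox in the GFP line. The SMARCB1 libraries of MGST3 lay above the GFP libraries of the same treatment, but not beyond the error: the log2 difference was 0.15 without Dox (SE 0.14, 95% interval −0.13 to 0.44, edgeR adjusted p = 0.441) and 0.14 with Dox (SE 0.14, edgeR adjusted p = 0.461).

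The other members were compared between the lines without Dox, to see which other defences differed beside MGST1. Of the 7 members tested apart from MGST1, ACSL4 and NQO1 passed, both higher in SMARCB1 DMSO, where 32% of the 15931 genes tested passed, 16.3% as higher and 15.7% as lower. In all 2600 genes were higher and 2505 lower, and with library totals in place of TMM 1732 were higher and 3658 lower, the median of all genes moving from 0.01 to −0.10 on the log2 scale. ACSL4, which makes the membrane more oxidisable, stood at 21.3 and 19.4 CPM in SMARCB1 DMSO against 2.28 and 2.37 CPM in GFP DMSO. The groups were far apart, and the difference was 8.72-fold (log2 fold change 3.13, SE 0.15, edgeR adjusted p = 2.91e-13). NQO1, a quinone reductase, stood at 269 and 325 CPM in SMARCB1 DMSO against 134 and 149 CPM in GFP DMSO. That was a 2.10-fold difference with no overlap between libraries (log2 fold change 1.07, SE 0.10, edgeR adjusted p = 1.06e-08). Both calls were made under all 13 alternative settings.

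With Dox the same members were higher in the SMARCB1 line, by the same fit, in which all 8 libraries share 1 estimate of the spread. ACSL4 had 22.1 and 22.03 CPM in SMARCB1 Dox against 2.24 and 1.56 in GFP Dox, an 11.7-fold difference (log2 fold change 3.55, SE 0.16, edgeR adjusted p = 5.57e-14). NQO1 had 268 and 309 CPM against 144 and 152 (log2 fold change 0.96, SE 0.10, edgeR adjusted p = 4.42e-08). With Dox 4 of the 7 members passed, where 38.8% of all genes tested did, 19.6% as higher and 19.2% as lower. That comparison holds the effect of SMARCB1 re-expression as well as the difference between the lines.

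GCLC and GCLM, the catalytic and modifier subunits of the enzyme that starts glutathione synthesis, were both well expressed. GCLC was at 28.8 and 34.6 CPM with DMSO and 28.2 and 32.7 CPM with Dox in the SMARCB1 line, and at 30.7 and 33.0 CPM with DMSO and 28.7 and 32.3 CPM with Dox in the GFP line, so that all 4 groups overlapped. Its log2 difference between the lines was −0.00 in both treatments, with 95% intervals from −0.23 to 0.22. GCLM was at 96.9 and 86.5 CPM in SMARCB1 DMSO and 109 and 104 in GFP DMSO, a log2 difference of −0.22 that missed the threshold (SE 0.09, edgeR adjusted p = 0.0707). The call was made with library totals in place of TMM (−0.34, edgeR adjusted p = 0.00518) and without SMARCB1 DMSO replicate 1 (−0.30, edgeR adjusted p = 0.0367). With Dox the gap was wider, 87.1 and 76.7 CPM in SMARCB1 Dox against 119 and 104 in GFP Dox, and GCLM was lower in the SMARCB1 line (log2 fold change −0.44, SE 0.09, edgeR adjusted p = 0.000482). The Dox effects of GCLM did not differ between the lines by the test of that difference (−0.22, 95% interval −0.49 to 0.04, edgeR adjusted p = 0.427).

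GPX4, the selenoenzyme that reduces phospholipid hydroperoxides, was well expressed in both lines. It stood at 90.3 and 97.0 CPM in SMARCB1 DMSO and 85.8 and 85.7 in GFP DMSO, a log2 difference of 0.13 within the error (95% interval −0.06 to 0.31, edgeR adjusted p = 0.313). With Dox it stood at 112 and 90.9 CPM in SMARCB1 Dox and 81.1 and 84.4 in GFP Dox and passed as higher in the SMARCB1 line (log2 fold change 0.29, SE 0.09, edgeR adjusted p = 0.0136). The libraries of SMARCB1 Dox were far apart for GPX4, and without the higher one, replicate 1, the difference was 0.14 (edgeR adjusted p = 0.305). The call was also lost without GFP Dox replicate 1 (0.26, edgeR adjusted p = 0.104) or replicate 2 (0.32, edgeR adjusted p = 0.05004).

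HMOX1, which breaks down heme and frees its iron, did not pass between the lines in either treatment (log2 differences 0.14 without Dox and −0.16 with Dox, edgeR adjusted p = 0.351 and 0.273). AIFM2 (FSP1) had 1 to 10 counts per library and was not tested. AIFM2 also overlaps MACROH2A2 on the opposite strand, and reads of the overlap could not be assigned to a strand here. The low counts of AIFM2 and MGST2 mean that differences in these genes were not detectable at this depth.

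**Figure D3:**
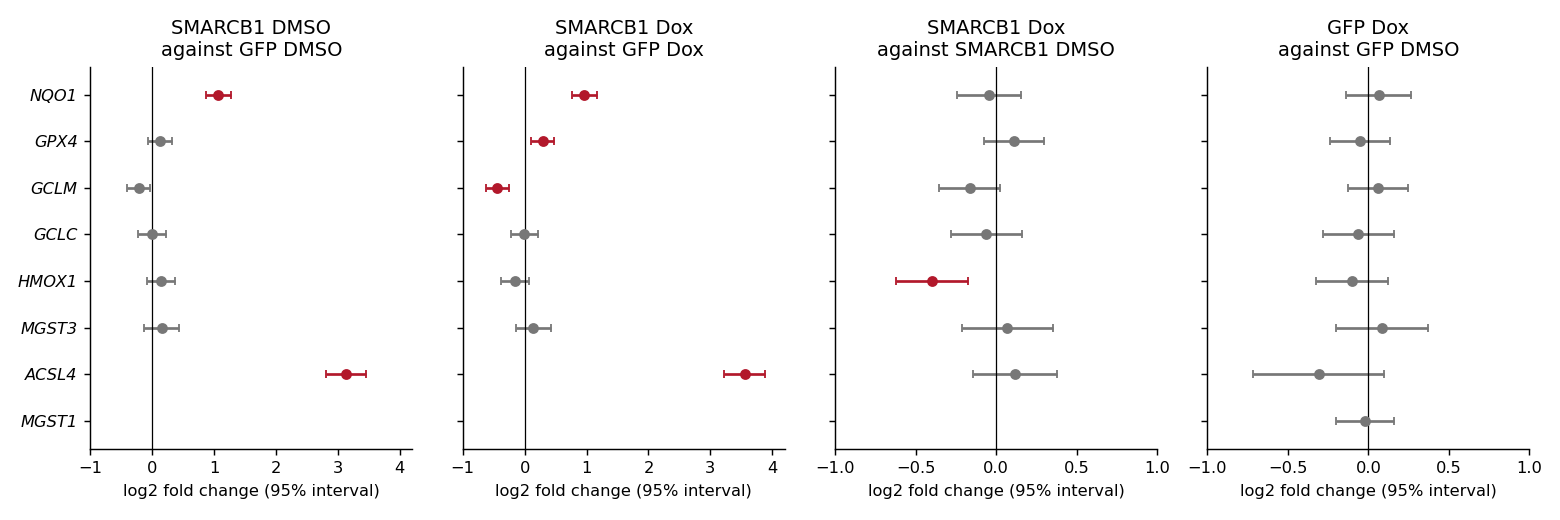
log2 fold changes (horizontal axis; bars, 95% intervals from edgeR's fit; red, adjusted p under 0.05; grey, not) of the tested members in 4 comparisons, with wider axes in the pair on the left. ACSL4 (3.13 and 3.55) and NQO1 (1.07 and 0.96) stand to the right in both comparisons between the lines, HMOX1 alone is red for Dox in the SMARCB1 line, and MGST1 is drawn for the GFP line alone.

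Levels between genes were compared per kilobase of exon. In SMARCB1 DMSO the order was NQO1 with 100.05 CPM per kb, GPX4 with 50.9, GCLM with 16.9, HMOX1 with 11.02, GCLC with 3.68, ACSL4 with 2.04 and MGST3 with 1.06, followed by AIFM2 and MGST2 under 0.03 and MGST1 at 0. Neighbours in that order did not overlap between libraries down to MGST3, while AIFM2 and MGST2 overlapped. In GFP DMSO, NQO1 with 47.7 and GPX4 with 46.6 CPM per kb overlapped, and MGST1 with 12.9 CPM per kb stood between GCLM with 19.7 and HMOX1 with 10.0. ACSL4 dropped below MGST3 there, with 0.233 against 0.952 CPM per kb.

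The effect of SMARCB1 re-expression on the members was asked next, in SMARCB1 Dox against SMARCB1 DMSO. HMOX1 was the 1 member of 7 that passed, where 14% of all genes tested passed, 8.33% as higher and 5.69% as lower. In all 1327 genes rose and 907 fell, and with library totals 1986 rose and 497 fell. It stood at 27.4 and 23.4 CPM with DMSO and at 19.8 and 18.7 CPM with Dox. The groups did not overlap, and HMOX1 fell by 0.40 on the log2 scale (SE 0.11, edgeR adjusted p = 0.0155), to 0.760 of its level. The call was lost with library totals (−0.30, edgeR adjusted p = 0.0666), without SMARCB1 DMSO replicate 1 (−0.28, edgeR adjusted p = 0.201) and without SMARCB1 Dox replicate 2 (−0.36, edgeR adjusted p = 0.0860). SMARCB1 DMSO replicate 1 was the library with the largest mitochondrial share, 27.9% of counts, and the part of that share in the result was not tested. In the GFP line HMOX1 was at 24.3 and 21.9 CPM with DMSO and 22.2 and 20.9 with Dox (log2 fold change −0.10, SE 0.11, edgeR adjusted p = 1). The difference between the Dox effects on HMOX1 did not pass (−0.30, 95% interval −0.61 to 0.02, edgeR adjusted p = 0.353).

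The remaining members did not pass under SMARCB1 re-expression. Their log2 fold changes ran from −0.16 for GCLM (95% interval −0.35 to 0.03) to 0.12 for ACSL4 (95% interval −0.14 to 0.38), with GCLC at −0.06, NQO1 at −0.04, MGST3 at 0.07 and GPX4 at 0.11, and GCLC and NQO1 turned positive with library totals (0.03 and 0.05). The interval of NQO1, −0.24 to 0.16, leaves out a change of the size seen between the lines, as does that of ACSL4. In GFP Dox against GFP DMSO no member passed, and neither did any of the 15931 genes tested (0%) by edgeR. Of these, 266 had an unadjusted p under 0.05, a smaller share than the 0.05 that such a threshold passes where nothing changes. The test was thus cautious in the GFP line, and the lack of calls does not show that Dox had no effect there. The values of the members ran from −0.31 for ACSL4 (95% interval −0.71 to 0.10) to 0.09 for MGST3. The test of the difference between the Dox effects called no member, where it called 4.71% of all genes (3.07% or 489 genes with a higher and 1.64% or 261 genes with a lower effect in the SMARCB1 line, and 670 and 159 genes with library totals). ACSL4 had the largest such difference, 0.43 (95% interval −0.06 to 0.91, edgeR adjusted p = 0.393).

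The wider pathway was read through 8 gene lists of 165 genes in all, of which 164 were in the files and 132 could be tested. Between the DMSO groups 50 of the 132 passed (37.9%, against 32% of all genes), 24 higher and 26 lower in the SMARCB1 line. After SMARCB1 re-expression 25 passed (18.9%, against 14%), 16 higher and 9 lower. No list gene passed for Dox in the GFP line, and 11 (8.33%, against 4.71% of all genes) passed the test of the difference between the Dox effects. The lists were chosen with earlier results of these data known, so these shares describe the lists and do not test them against all genes.

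**Figure D4:**
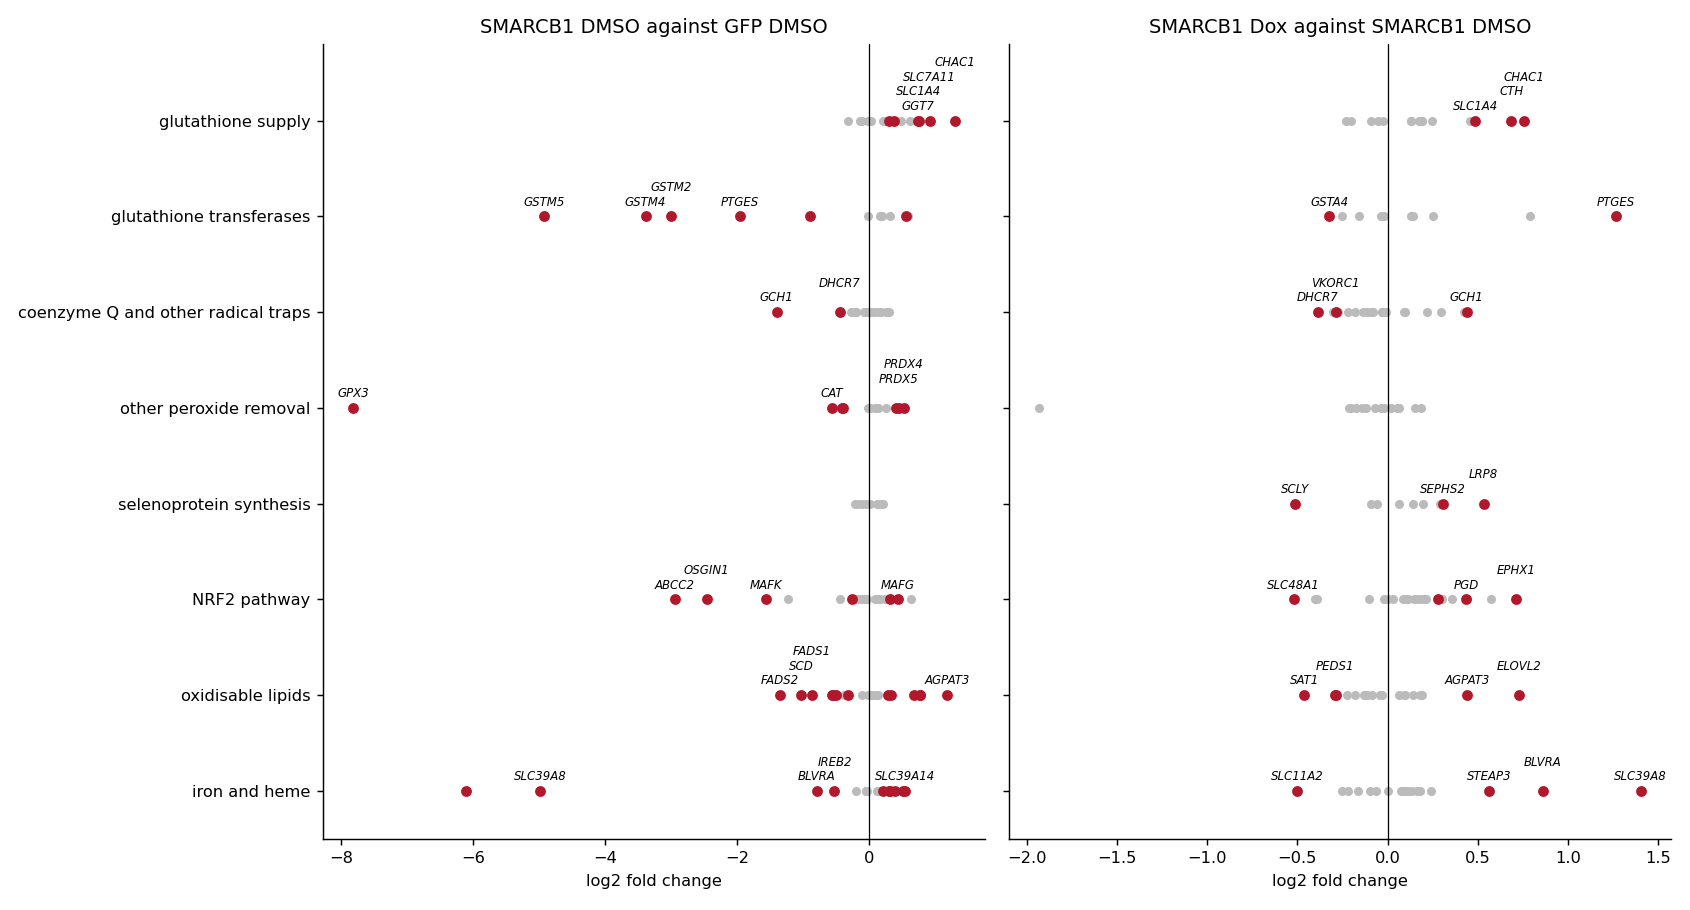
log2 fold change (horizontal axis) of the tested genes of the 8 lists (vertical axis), between the lines without Dox on the left and for SMARCB1 re-expression on the right; each point is a gene, red where the adjusted p was under 0.05, and the named points are the up to 4 largest called genes of a list at a mean of at least 1 CPM. Called genes of glutathione supply lie to the right of 0 in both panels. Among the named points, the largest differences between the lines, GPX3, GSTM5, GSTM4 and SLC39A8, lie to the left.

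Supply of glutathione covers cystine and glutamine uptake and glutathione turnover. Of its 16 tested genes 6 were higher and 0 lower in SMARCB1 DMSO than in GFP DMSO (37.5%, against 32% of all genes). The median log2 difference of the list was 0.34 against 0.01 over all genes. SLC7A11, the cystine transporter subunit of system xc-, stood at 94.96 and 96.9 CPM in SMARCB1 DMSO against 42.9 and 59.0 in GFP DMSO (log2 fold change 0.91, SE 0.11, edgeR adjusted p = 6.47e-07). Its partner subunit SLC3A2 was also higher (0.37, edgeR adjusted p = 0.00415), as were CHAC1, which degrades glutathione (1.30, edgeR adjusted p = 0.00033), and the neutral amino acid transporter SLC1A4 (0.75, edgeR adjusted p = 4.41e-05). GGT7 passed too (0.74, edgeR adjusted p = 0.00337) but not without GFP DMSO replicate 1 (0.46), without which 3 genes of the list passed. After SMARCB1 re-expression CHAC1 (0.76), CTH (0.69), which makes cysteine, and SLC1A4 (0.49) rose, with edgeR adjusted p of 0.0216, 0.00385 and 0.0064, and no gene of the list fell. In the GFP line CHAC1 was also higher with Dox, at 1.88 and 1.99 CPM against 1.39 and 1.33 with DMSO, without passing (0.51, 95% interval −0.04 to 1.06, edgeR adjusted p = 1). The test of the difference between the Dox effects called 0 of the 16 genes, with 0.24 for CHAC1, 0.56 for CTH and 0.54 for SLC1A4 (edgeR adjusted p = 0.817, 0.173 and 0.0831). Without SMARCB1 Dox replicate 1, 0 genes of the list passed, and without SMARCB1 DMSO replicate 2, 1 gene passed. Each of the 3 calls was lost without any of 2 or 3 libraries of that line, and that of CHAC1 also with DESeq2 (DESeq2 adjusted p = 0.0715). SLC7A11 gave 0.18 and SLC3A2 0.19, and neither passed (edgeR adjusted p = 0.300 and 0.196).

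The glutathione transferases, a list of soluble enzymes and of relatives of MGST1 in its membrane family, included several genes that were low in the SMARCB1 line. Of 11 tested genes of that list 5 were lower and 1 higher in SMARCB1 DMSO than in GFP DMSO (54.5%, against 32% of all genes). GSTM2 stood at 8.10 and 10.6 CPM in SMARCB1 DMSO against 77.8 and 73.8 in GFP DMSO (log2 fold change −3.01, SE 0.13, edgeR adjusted p = 1.58e-14). GSTM4 stood at 11.8 and 17.3 CPM against 159 and 147 (−3.39, SE 0.15, edgeR adjusted p = 2.96e-14). GSTM5 had 6 counts over the pair of SMARCB1 DMSO libraries and 219 over those of GFP DMSO, a ratio of 31.4 (95% counting interval 14.2 to 86.6). Its fitted log2 difference of −4.93 became −5.57 without SMARCB1 DMSO replicate 1. The mu-class genes are similar copies in a cluster, so reads could be split between them and each value is uncertain on its own. PTGES, the prostaglandin E synthase of the membrane family to which MGST1 belongs, was lower in SMARCB1 DMSO (2.71 and 2.24 CPM against 8.91 and 10.3, log2 fold change −1.96, edgeR adjusted p = 8.12e-09). Unlike MGST1, PTGES rose with SMARCB1 re-expression, to 6.57 and 5.29 CPM (log2 fold change 1.26, SE 0.18, edgeR adjusted p = 4.39e-05). GSTA4 fell by 0.32 (edgeR adjusted p = 0.0456), a call that was lost when any 1 of 7 of the 8 libraries was left out. That call was also lost with DESeq2 (DESeq2 adjusted p = 0.0774), with library totals and without the filter. GSTT2, GSTT2B and GSTT4 had 0 counts and GGT5 of the supply list 2 counts over all 8 libraries. These lie with SMARCB1 on chromosome 22, between BCR and SPECC1L, the nearest flanking genes with reads.

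The next list covers coenzyme Q, tetrahydrobiopterin and the other radical traps, and its genes do not stand in for AIFM2, which was not tested. Of 20 tested genes 2 were lower and 0 higher in SMARCB1 DMSO than in GFP DMSO (10%, against 32% of all genes). GCH1, the first enzyme of tetrahydrobiopterin synthesis, stood at 16.9 and 15.4 CPM in SMARCB1 DMSO against 43.2 and 42.2 in GFP DMSO (log2 fold change −1.40, SE 0.10, edgeR adjusted p = 8.79e-11). DHCR7, which uses up 7-dehydrocholesterol, was the other gene (−0.45, edgeR adjusted p = 0.0016). With SMARCB1 re-expression GCH1 rose to 22.2 and 21.5 CPM (0.44, SE 0.10, edgeR adjusted p = 0.00371). DHCR7 (−0.39, edgeR adjusted p = 0.0155) and the vitamin K reductase VKORC1 (−0.29, edgeR adjusted p = 0.0388) fell. With DESeq2 VKORC1 missed the threshold (DESeq2 adjusted p = 0.0529). The 2 calls for a fall were lost with library totals and without SMARCB1 DMSO replicate 1. That of DHCR7 was also lost without SMARCB1 Dox replicate 2 (−0.27), and that of VKORC1 when any 1 of 7 libraries was left out.

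Among the other peroxide-removing enzymes 3 of 14 were higher and 4 lower in SMARCB1 DMSO than in GFP DMSO (50%, against 32% of all genes). GPX3, the secreted glutathione peroxidase, had 3 and 1 counts in SMARCB1 DMSO against 497 and 613 in GFP DMSO, a ratio of 239 (95% counting interval 93.0 to 878). The fitted log2 difference of −7.82 became −8.82 without SMARCB1 DMSO replicate 1 and −7.17 without SMARCB1 DMSO replicate 2. In the Dox libraries it had 0 and 1 counts against 444 and 651. GPX3 was thus nearly empty where MGST1 was empty. Catalase (CAT) was lower (−0.57, edgeR adjusted p = 0.000432), and the peroxiredoxins PRDX4 (0.53, edgeR adjusted p = 8.49e-05) and PRDX5 (0.45, edgeR adjusted p = 0.0367) were higher in SMARCB1 DMSO. PRDX5 lost its call without either library of either DMSO group, with library totals and with DESeq2 (DESeq2 adjusted p = 0.114). No gene of that list passed for SMARCB1 re-expression (1 did without SMARCB1 DMSO replicate 2). The selenoprotein synthesis genes, which supply the selenocysteine of GPX4, had 0 of 9 called between the DMSO groups, against 32% of all genes. After re-expression the selenoprotein P receptor LRP8 (0.53, edgeR adjusted p = 0.000314) and SEPHS2, which makes selenophosphate (0.31, edgeR adjusted p = 0.0268), rose. The selenocysteine lyase SCLY fell (−0.51, edgeR adjusted p = 0.0337). The SCLY call was lost with DESeq2 (DESeq2 adjusted p = 0.0559), with library totals and without any 1 of 3 libraries (−0.62 to −0.38). SEPHS2 lost its call without SMARCB1 DMSO replicate 1 (0.23) or SMARCB1 Dox replicate 1 (0.26). SCLY gave −0.35 for Dox in the GFP line as well (95% interval −0.67 to −0.03, edgeR adjusted p = 1), and its Dox effects did not differ between the lines by the test (−0.17, edgeR adjusted p = 0.797). Of the 9 genes that test called LRP8 (0.64, edgeR adjusted p = 0.00453). Without SMARCB1 DMSO replicate 1, or without SMARCB1 Dox replicate 1, 1 gene of the list passed.

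The RNA of the regulators behind GCLC, GCLM, NQO1 and HMOX1 was level, while their protein and its activity were not measured here. NFE2L2 (NRF2) ranged from 212 to 237 CPM and its inhibitor KEAP1 from 35.2 to 41.4 CPM over the 8 libraries, and neither passed in any of the 5 comparisons. NFE2L2 overlaps HNRNPA3 (63220 counts over all libraries) and AGPS (40255 counts) on the opposite strand, so its reads there are uncertain. Of the 23 tested genes of the NRF2 list, 2 were higher and 4 lower in SMARCB1 DMSO than in GFP DMSO (26.1%, against 32% of all genes). The median of the list was −0.05. The lower genes included the export pump ABCC2 (−2.95), OSGIN1 (−2.47) and MAFK, a small MAF partner of NRF2 (−1.57), and the higher ones MAFG, another such partner (0.44), with edgeR adjusted p of 1.55e-08, 1.76e-09, 5.04e-07 and 0.00546. Without SMARCB1 DMSO replicate 2, ABCC2 was at −3.75. Without GFP DMSO replicate 2, 3 genes of the list passed and MAFG was not among them. NQO1 was 2.10-fold higher in SMARCB1 DMSO than in GFP DMSO, and the cause of these differences was not tested. After SMARCB1 re-expression 4 genes of the list rose and 1 fell (21.7%, against 14% of all genes). Microsomal epoxide hydrolase EPHX1 rose from 35.7 and 35.5 CPM to 61.2 and 55.3 (0.71, SE 0.09, edgeR adjusted p = 1.05e-05). PGD, a dehydrogenase that supplies NADPH, rose as well (0.44, edgeR adjusted p = 0.00143). The heme transporter SLC48A1 fell from 550 and 479 CPM to 348 and 369 (−0.52, SE 0.08, edgeR adjusted p = 0.000165). SLC48A1 overlaps HDAC7 (23307 counts over all libraries) and RAPGEF3 (6837 counts) on the opposite strand. EPHX1 likewise overlaps TMEM63A (4097 counts), so reads of these overlaps are uncertain. GCLM and NQO1 did not pass.

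Genes that set how oxidisable the membrane lipids are surround ACSL4 in function. Of 21 tested genes 6 were higher and 7 lower in SMARCB1 DMSO than in GFP DMSO (61.9%, against 32% of all genes). The desaturases FADS2 (36.0 and 34.2 CPM against 90.3 and 89.3, log2 fold change −1.36), SCD (−1.03) and FADS1 (−0.87) were lower, with edgeR adjusted p of 1.01e-11, 3.85e-09 and 3.23e-08. The acyltransferase AGPAT3 was higher, at 53.7 and 51.0 CPM against 22.7 and 23.5 (1.18, SE 0.09, edgeR adjusted p = 7.39e-10). FADS1 and FADS2 overlap on opposite strands, so reads of the overlap are uncertain between them. FEN1 (11649 counts over all libraries) also overlaps FADS2 (17450 counts), on the same strand, which adds to the uncertainty of FADS2. With SMARCB1 re-expression the elongase ELOVL2 (0.73, edgeR adjusted p = 8.17e-05) and AGPAT3 (0.44, edgeR adjusted p = 0.00125) rose. The polyamine acetyltransferase SAT1 (−0.46, edgeR adjusted p = 0.000952) and the plasmalogen desaturase PEDS1 (−0.29, edgeR adjusted p = 0.0382) fell. Without SMARCB1 Dox replicate 1, or without replicate 2, 3 genes of the list passed, and PEDS1 lost its call without any 1 of 5 libraries.

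Iron and heme genes bear on the iron that HMOX1 releases. Of 18 tested genes 6 were higher and 4 lower in SMARCB1 DMSO than in GFP DMSO (55.6%, against 32% of all genes). The metal transporter SLC39A8 stood at 1.098 and 0.607 CPM in SMARCB1 DMSO against 27.7 and 25.8 in GFP DMSO (log2 fold change −4.99, SE 0.19, edgeR adjusted p = 2.35e-15), and its relative SLC39A14 was higher (0.55, edgeR adjusted p = 6.38e-05). Biliverdin reductase BLVRA, the enzyme after HMOX1 in heme breakdown (−0.79, edgeR adjusted p = 0.00105), and the iron regulatory protein IREB2 (−0.53, edgeR adjusted p = 3.01e-05) were lower. The iron exporter SLC40A1, named after its values were seen, had 0 counts in the SMARCB1 line against 18 counts over the GFP DMSO libraries. With Dox it had 11 counts over the GFP libraries. SLC40A1 was picked for its large difference, so these few counts are a description and carry no test. After SMARCB1 re-expression SLC39A8 rose to 2.19 and 2.26 CPM (1.403, SE 0.25, edgeR adjusted p = 0.000408), still below every GFP library. BLVRA (0.86, edgeR adjusted p = 0.00144) and the ferrireductase STEAP3 (0.56, edgeR adjusted p = 0.00193) rose, and the iron transporter SLC11A2 fell (−0.50, edgeR adjusted p = 0.000425). Without GFP DMSO replicate 1 or without GFP DMSO replicate 2, 6 genes of the list passed between the DMSO groups.

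The genes whose profile over the 8 libraries was most like that of MGST1 were found by the root mean square difference of centred log2 CPM among the 9817 genes averaging 5 CPM or more. RFPL4B was closest (0.385 log2 units), followed by BMP7 (0.870), DKK1 (1.102), ARMCX2 (1.19) and FBN2 (1.24). RFPL4B had 2 and 3 counts with DMSO and 1 and 0 with Dox in the SMARCB1 line, against 4541 to 5903 in the GFP libraries. ARMCX2 had 0 counts in all 4 SMARCB1 libraries and 594 to 694 in the GFP libraries. In the SMARCB1 libraries BMP7 had 0 to 4 counts, DKK1 6 to 17 and FBN2 1 to 4. In the GFP libraries they had 2398 to 3041, 5080 to 5516 and 1154 to 1655 counts. The genes were picked for their likeness to MGST1, and they lie on chromosomes 6, 20, 10, X and 5 in the order given. No test was made of these, since MGST1 was chosen for its pattern.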

How the data were processed

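Total RNA of 8 G401 libraries was sequenced. Per the labels and the methods, the authors aligned reads to hg38 with STAR and made raw counts per gene with HTSeq (exons, intersection-strict mode, GENCODE release 42). The labels and the methods name different library kits, and the strand setting of HTSeq is not given in the sources used here, so values of overlapping genes are uncertain. The 5 entries that name no gene held 27.0% to 29.3% of reads and were left out. Genes were placed with GENCODE release 44 by identifier (62625 of 69215 matched; the rest held at most 0.000681% of counts).

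The deposited counts were tested with edgeR 4.0.16 (R 4.3.3) by the quasi-likelihood test, with filterByExpr, TMM scaling and 1 mean per group over all 8 libraries. P-values were adjusted by Benjamini-Hochberg over the 15931 genes tested, threshold 0.05. DESeq2 (1.42.0), the tool in the study's methods, served as an alternative. A count of 0 was bounded by 3 counts. The fits were also run on simulated counts, in which, unlike these data, the lines did not differ without Dox. No result here rests on that run. The 10 genes and the gene lists were chosen with earlier results of these data known. Named were the members, up to 4 called genes of each list with the largest change at a mean of at least 1 CPM (SMARCB1 re-expression, and the lines without Dox), list genes on chromosome 22 beside SMARCB1, 2 regulators, the cystine transporter subunits, the neighbours of MGST1 and the 5 genes most like it. Protein sequences were not analysed here, and 1 list gene is counted but not reported here. Alternatives were other scalings, DESeq2, no filter, a replicate block and each library left out.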

Additional observations from a re-analysis of the deposited data

Results flagged for a closer look

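For 11 genes of the lists, and for none of the 10 members, the Dox effect differed between the lines by a test of the difference itself (edgeR's quasi-likelihood interaction contrast, adjusted over all genes tested, of which 4.71% passed). The values are the log2 Dox effect in the SMARCB1 line minus that in the GFP line. The effect was higher in the SMARCB1 line for PTGES (1.37), SLC39A8 (1.34), BLVRA (1.01), ELOVL2 (0.75), EPHX1 (0.66), LRP8 (0.64), STEAP3 (0.58) and GCH1 (0.48). It was lower there for SLC11A2 (−0.51), SAT1 (−0.47) and SLC48A1 (−0.42). SLC48A1 and EPHX1 overlap other genes with reads on the opposite strand, so their values are uncertain there.

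PTGES, EPHX1 and LRP8 passed whichever library was left out. SLC39A8 lost the call without SMARCB1 DMSO replicate 2 (0.96), ELOVL2 without GFP Dox replicate 2 (0.67), and BLVRA without GFP DMSO replicate 2 or GFP Dox replicate 1 (0.90 and 0.87). The remaining 5 genes lost it without 5 to 7 of the 8 libraries. There SLC11A2 ranged from −0.52 to −0.41, STEAP3 from 0.45 to 0.60, SAT1 from −0.52 to −0.35, GCH1 from 0.41 to 0.54 and SLC48A1 from −0.44 to −0.32. SLC11A2 (−0.43), SAT1 (−0.39) and SLC48A1 (−0.34) also lost it with library totals, and STEAP3 (0.58) with DESeq2.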

How the results depend on the processing

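The calls of ACSL4 and NQO1 between the lines were made under every alternative run, as was that of GCLM with Dox. Member counts were 0 instead of 1 for SMARCB1 re-expression with library totals, and 0 to 1 with a library left out. Over left-out libraries the genes called ranged from 1284 (without SMARCB1 Dox replicate 1; 1462 without SMARCB1 DMSO replicate 1) to 2088 for re-expression and from 390 to 805 for the difference of the Dox effects (390 to 497 without any GFP library or SMARCB1 Dox replicate 1). The latter count rose to 1282 with the replicate block. Without the filter 1 gene passed for Dox in the GFP line. For re-expression, library totals gave 5 genes of glutathione supply, 1 transferase, 1 radical trap and 1 other peroxide gene, DESeq2 and the unfiltered fit 1 transferase each, and left-out libraries 0 to 4, 1 to 2, 1 to 4 and 0 to 1, with 1 to 3 selenoprotein synthesis and 3 to 5 oxidisable lipid genes. Between the DMSO groups radical traps gave 4 with library totals, and left-out libraries gave 3 to 7 of glutathione supply, 3 to 7 of the NRF2 list and 6 to 10 of iron and heme.

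Replicate numbers were also used as a block. The deviations of same-numbered libraries correlated weakly, between 0.03 and 0.15, which does not decide whether the numbers pair the samples. With the block 1755 genes rose and 1394 fell for re-expression, against 1327 and 907 without it. Between the DMSO groups 3010 were higher and 2967 lower with the block, against 2600 and 2505. With the replicate block, GCLM passed between the DMSO groups (−0.22, edgeR adjusted p = 0.00922). Radical traps gave 5 calls, other peroxide removal 1 and iron and heme 7 for re-expression, and radical traps 4 between the DMSO groups.

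Signs turned only for members that did not pass, and the cause was not tested. With library totals, re-expression gave 0.029 for GCLC and 0.046 for NQO1, and the difference of the Dox effects 0.062 for MGST3. Over left-out libraries, re-expression ranged from −0.042 to 0.25 for GPX4, −0.19 to 0.080 for GCLC and −0.17 to 0.099 for NQO1. Dox in the GFP line ranged from −0.11 to 0.054 for MGST1, −0.15 to 0.014 for GCLC, −0.045 to 0.15 for GCLM and −0.016 to 0.14 for NQO1. The difference of the Dox effects ranged from −0.073 to 0.045 for MGST3, −0.12 to 0.14 for GCLC and −0.23 to 0.036 for NQO1. The difference between the lines in GCLC ranged from −0.15 to 0.12 without Dox and −0.11 to 0.10 with Dox. With 2 libraries per group of 29632090 to 37597477 counts, differences in MGST2 and AIFM2 were not detectable.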
